A study of Rattus norvegicus with 4 samples.

Results

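The neurexins Nrxn2 and Nrxn3, the neuroligins Nlgn1, Nlgn2 and Nlgn3, the scaffold genes Shank1, Shank2 and Shank3, and Dlg4, which encodes PSD-95, were examined in the hippocampus of newborn Wistar rats. These 9 genes were chosen by family and function and matched by gene symbol, out of 17445 rows listed in any of the 4 libraries. Each of the 9 had 1 row in every library, and all were among the 13542 rows with a mean of at least 1 FPKM (fragments per kilobase of transcript scaled to the mapped total). The rats were male and female pups at postnatal day 1, and the labels name no other allele or agent for any group. Their dams, aged 10 weeks per the labels, had received bisphenol A (BPA, a plasticizer studied for its estrogen-like activity) at 5000 µg per kg body weight each day, or the vehicle alone, from gestation day 1 to birth. One RNA-seq library was made per group, with male and female pups kept apart in both treatments, and each library was a pool of 3 hippocampi. With 1 library per group, the spread between pups of a group was not measured, and the value of a pool can rest on any of its 3 hippocampi.

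Neurexins sit on the presynaptic membrane and bind neuroligins across the synaptic cleft, and this pairing helps to organise the release site and the receptor field opposite it. On the postsynaptic side neuroligins bind PSD-95, which is linked through the Dlgap proteins to the Shank scaffolds and from there to the actin cytoskeleton. Neuroligin 1 is known chiefly from excitatory synapses, neuroligin 2 from inhibitory synapses and neuroligin 3 from both. In the newborn hippocampus these synapses are only beginning to form, and several of the genes are known as autism risk genes.

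RefSeq gave the start region, 250 bases before and 50 bases after a transcript start, for 5 of the 9 genes (Nlgn1, Nlgn2, Nlgn3, Shank3 and Dlg4) in the rat build GRCr8. The regions shown are those of Dlg4 and Nlgn1, whose levels were lower in both BPA libraries than in both controls, and those of Nlgn2 and Shank3, which were lower in both female libraries than in both male ones. Nlgn3 was also lower in both female libraries, but its region is not shown. Capitals mark matches to 4 short motifs searched on both strands, GGGCGG (the GC box), TATAAA (the TATA box), GGTCA (the repeated unit of estrogen response elements) and TGACG (the core of a cAMP response element). Each is written 5′ to 3′ along the gene's own strand, Dlg4 at chr10:55239534-55239833 (plus), Nlgn1 at chr2:110930627-110930926 (minus), Nlgn2 at chr10:55056529-55056828 (minus) and Shank3 at chr7:122448073-122448372 (plus).
Dlg4: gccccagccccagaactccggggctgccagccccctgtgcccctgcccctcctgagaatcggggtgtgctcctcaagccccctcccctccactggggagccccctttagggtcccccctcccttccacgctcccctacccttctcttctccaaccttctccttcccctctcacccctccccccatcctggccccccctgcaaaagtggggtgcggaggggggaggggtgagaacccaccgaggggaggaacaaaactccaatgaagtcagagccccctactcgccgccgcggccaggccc
Nlgn1: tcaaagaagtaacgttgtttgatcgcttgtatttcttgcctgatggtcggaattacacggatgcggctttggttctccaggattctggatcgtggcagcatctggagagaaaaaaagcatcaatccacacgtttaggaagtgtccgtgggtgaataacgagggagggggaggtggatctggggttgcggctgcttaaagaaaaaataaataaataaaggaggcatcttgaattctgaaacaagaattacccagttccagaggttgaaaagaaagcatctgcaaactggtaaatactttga
Nlgn2: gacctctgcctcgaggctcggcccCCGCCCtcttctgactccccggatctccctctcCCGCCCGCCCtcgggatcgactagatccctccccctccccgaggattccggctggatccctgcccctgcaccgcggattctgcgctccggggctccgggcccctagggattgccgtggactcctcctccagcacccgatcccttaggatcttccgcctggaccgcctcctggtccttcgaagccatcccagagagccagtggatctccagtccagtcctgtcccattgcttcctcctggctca
Shank3: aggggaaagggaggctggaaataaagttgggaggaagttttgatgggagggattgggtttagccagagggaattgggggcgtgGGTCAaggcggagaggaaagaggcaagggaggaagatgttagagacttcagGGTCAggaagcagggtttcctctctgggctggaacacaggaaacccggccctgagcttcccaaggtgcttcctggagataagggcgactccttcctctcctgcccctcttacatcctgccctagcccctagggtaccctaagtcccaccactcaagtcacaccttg
The Nlgn2 and Shank3 windows lay at the outermost start of their gene in RefSeq, while those of Dlg4 and Nlgn1 lay at an inner transcript start. The Nlgn2 window held GGGCGG 3 times on the reverse strand, with first bases at -226, -193 and -189 from the start, the last pair overlapping by 2 bases. GGGCGG was found in 33.1% of the 33469 rat windows of the same length. The Shank3 window held GGTCA at -167 and -116, a motif found in 40.5% of all windows. The Dlg4 and Nlgn1 windows held none of the 4 motifs, and the other motifs, TATAAA and TGACG, were found in 14.2% and 21.2% of all windows. GC content was 68.7% for Dlg4, 67.3% for Nlgn2, 56.3% for Shank3 and 43.3% for Nlgn1. The Nlgn3 window lay at an inner transcript start, held none of the 4 motifs and had 61.7% GC. These matches describe the letters of the windows only.

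Depth was estimated from the steps between low FPKM values, which gave 8650000 to 8930000 fragments per library, and the members drew between 490 (Nlgn1) and 7550 (Nrxn2) fragments in a library. The tissue label fitted the hippocampal markers, with the vesicular glutamate transporter gene Slc17a7 at 108.26 to 138.08 FPKM and Prox1, a marker of dentate granule neurons, at 7.61 to 12.81 FPKM. The choroid plexus list stood apart between libraries, since its 6 genes summed to 266 FPKM (control) and 706 FPKM (BPA) for the male pools but to 7.77 and 45.5 FPKM for the female pools. Ttr (transthyretin) made up 256.46 and 689.51 FPKM of the male sums and 3.96 and 42.39 FPKM of the female ones. The summed neuron markers ranged from 2624 to 2934 FPKM. Most of that sum was Tubb3 (1149.84 to 1412.12 FPKM) and Stmn2 (817.10 to 926.09 FPKM). The sum can thus hide changes in the less abundant markers, such as Nefl (34.03 to 52.21 FPKM) and Snap25 (87.80 to 119.80 FPKM). In bulk tissue, fewer cells of a type and less RNA per cell cannot be told apart.

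All 9 genes were expressed in every library, and they differed in mean level by about an order of magnitude. Dlg4 had the highest level, with 147.47 FPKM (control) and 131.04 FPKM (BPA) for the male pools and 131.43 and 128.93 FPKM for the female pools, and its mean of 134.7 FPKM was above that of 96.5% of the rows tested. Nrxn2 followed with a mean of 92.8 FPKM and Shank1 with 74.1 FPKM. Next came Nlgn2 at 57.5 FPKM and Nlgn3 at 39.4 FPKM. Dlg4 was above Nrxn2 in all 4 libraries without overlap, whereas the values of Nrxn2 and Shank1 overlapped. Shank1 lay above Nlgn2, Nlgn2 above Nlgn3 and Nlgn3 above Shank3 without overlap. Shank3 (22.4 FPKM), Nlgn1 (18.1 FPKM) and Shank2 (17.5 FPKM) overlapped each with its neighbour. Nrxn3 was lowest at 13.1 FPKM, below Shank2 in every library and above 56.0% of the rows tested. The deposited rows give 1 value per gene, so the long and short neurexin forms and the splice forms of the neuroligins and Shanks were not told apart.

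**Figure D1:**
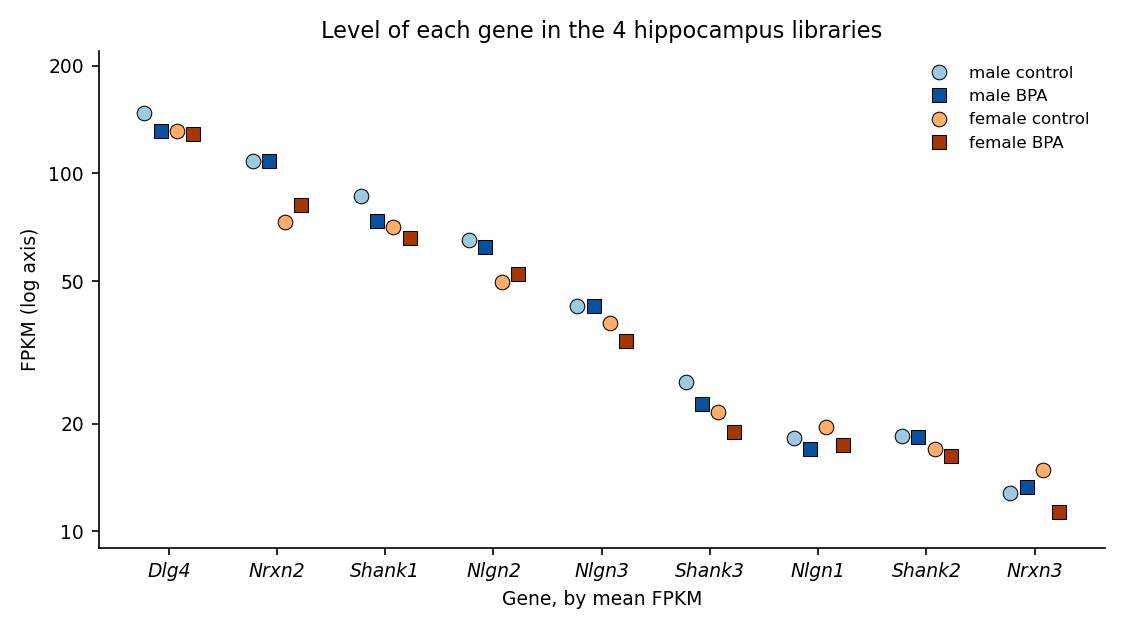
Level of each of the 9 genes in FPKM (vertical, log axis), ordered along the horizontal axis by mean, with 1 point per library and no error bar because each group is 1 library. Dlg4 sits at 128.93 to 147.47 FPKM and Nrxn3 at 11.33 to 14.89 FPKM, and the male points of Nrxn2 and Nlgn2 lie above the female ones.

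Within the families the composition was nearly constant for the Shanks and less so for the neuroligins. Shank1 supplied 64.1% to 65.9% of the summed Shank FPKM, Shank3 18.8% to 19.997% and Shank2 14.1% to 16.1%. The Shank sum itself was 131 and 114.5 FPKM for the male pools (control, then BPA) and 109.5 and 101.05 FPKM for the female pools. The sum was thus lowest in the female BPA library while the shares stayed within a few percent of the total. Nlgn2 supplied 46.3% to 51.7% of the neuroligin sum, Nlgn3 32.8% to 35.5% and Nlgn1 13.9% to 18.2%. The female control library had the lowest share of Nlgn2 and the highest of Nlgn1, and its ratio of Nlgn2 to Nlgn1 was 2.54 against 3.57 in male control, 3.68 in male BPA and 3.01 in female BPA. Nrxn2 exceeded Nrxn3 by a ratio of 8.43 (control) and 8.16 (BPA) for the male pools and 4.91 and 7.20 for the female pools. The female control library was again the lowest.

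**Figure D2:**
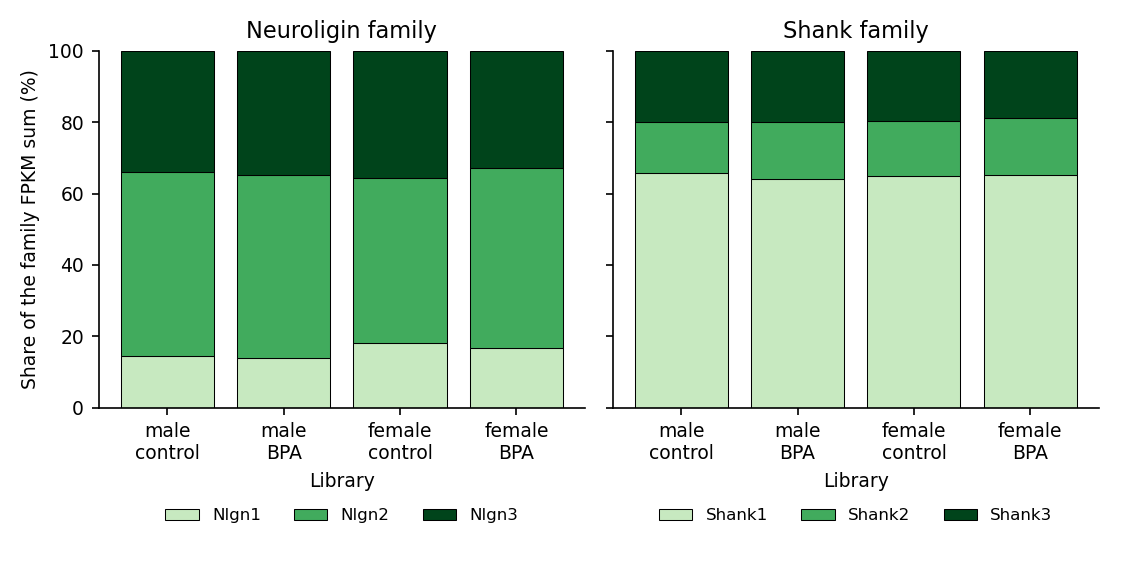
Share of each gene in the summed FPKM of its family (percent, vertical) in the 4 libraries (horizontal), neuroligins on the left and Shanks on the right, with no error bars because each bar is 1 library. The Shank bars are nearly alike across libraries, and the neuroligin bar of the female control library has the largest Nlgn1 share, 18.2%.

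BPA against control was asked first with the sexes combined, as 2 BPA libraries against 2 control libraries. None of the 9 genes passed limma's test at an adjusted p of 0.05 on log2(FPKM + 1), and none had an unadjusted p under 0.05, beside 0% and 4.70% of the 13542 rows tested. The median difference of the 9 was -0.10 on the log2 scale, against -0.02 over all rows tested. The Shank genes and Dlg4 had lower means in the BPA libraries, and Nrxn2 a higher one. That fit leaves the sex difference in its estimate of the spread. With sex as a covariate the difference was -0.17 ± 0.07 for Shank1 (limma SE, adjusted p = 0.565) and -0.19 ± 0.09 for Shank3 (adjusted p = 0.588), and again none of the 9 passed. For a single gene an exact permutation test of 2 libraries against 2 cannot give a p below 0.333. The study describes its pups as coming from independent litters. Each library pools 3 hippocampi and each group has 1 library. These p-values therefore do not measure the spread between pups or between pools of a group. Without the covariate the spread comes from the male and female library of an arm. With the covariate it comes from how far the BPA difference departs between the sexes.

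On the presynaptic side, Nrxn2 was at 108.12 FPKM in male control and 108.52 in male BPA, and at 73.10 in female control and 81.61 in female BPA. Both male libraries were above both female ones, and BPA and control overlapped. Its BPA difference was 0.08 ± 0.21 on the log2(FPKM + 1) scale (limma SE, 2 libraries per arm, adjusted p = 0.988). Nrxn3 was at 12.83 FPKM (control) and 13.30 FPKM (BPA) for the male pools and 14.89 and 11.33 FPKM for the female pools. Its highest and its lowest value were both in females, the control and the BPA library. Within females the difference of Nrxn3 was -0.37 on the log2(FPKM + 1) scale, with a 95% counting interval of -0.51 to -0.22, and within males it was 0.05 (-0.09 to 0.19). The counting intervals are Clopper-Pearson intervals from the estimated fragments, and cover counting error alone, not the variation between pups. For Nrxn2 the female difference was 0.16 (0.10 to 0.21) and the male one 0.01 (-0.04 to 0.05). With 4 libraries in 4 groups no test of a male against a female difference could be made for any gene.

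Among the neuroligins, Nlgn1 was at 18.28 FPKM (control) and 16.94 FPKM (BPA) for the male pools and 19.57 and 17.43 FPKM for the female pools. Both BPA libraries were below both control libraries. The combined difference was -0.13 ± 0.11 on the log2(FPKM + 1) scale (limma SE, adjusted p = 0.973), and the counting interval held 0 in each sex. Nlgn2, the neuroligin of inhibitory synapses, was at 65.29 FPKM (control) and 62.33 FPKM (BPA) for the male pools and 49.80 and 52.43 FPKM for the female pools. It was lower with BPA in males, by -0.07 (-0.13 to -0.0015), and higher with BPA in females, by 0.07 (0.00043 to 0.15), both intervals nearly reaching 0. The combined difference was 0.0035 ± 0.16 (limma SE, adjusted p = 0.997). Nlgn3, encoded on the X chromosome, was at 42.72 FPKM (control) and 42.50 FPKM (BPA) for the male pools and 38.23 and 34.08 FPKM for the female pools. The female BPA library was the lowest, and the difference was -0.16 (-0.26 to -0.06) in females and -0.01 (-0.10 to 0.09) in males.

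The Shank genes encode the scaffold that joins the PSD-95 layer to the cytoskeleton. Shank1 was at 86.29 FPKM (control) and 73.44 FPKM (BPA) for the male pools and 70.95 and 65.88 FPKM for the female pools. BPA was below control in each sex, but male BPA lay above female control, so the groups overlapped. The difference was -0.23 (-0.28 to -0.18) in males and -0.11 (-0.16 to -0.05) in females on the log2(FPKM + 1) scale, and -0.17 ± 0.13 combined (limma SE, adjusted p = 0.973). Shank3, a gene linked to autism and to Phelan-McDermid syndrome in people, was at 26.19 FPKM (control) and 22.74 FPKM (BPA) for the male pools and 21.59 and 18.95 FPKM for the female pools. It showed the same order of libraries as Shank1, with male control highest and female BPA lowest. The differences of Shank3 were -0.20 (-0.29 to -0.10) in males and -0.18 (-0.29 to -0.07) in females, and -0.19 ± 0.15 combined (limma SE, adjusted p = 0.973). Shank2 was at 18.49 FPKM (control) and 18.32 FPKM (BPA) for the male pools and 16.99 and 16.22 FPKM for the female pools. Its differences of -0.01 (-0.11 to 0.09) and -0.06 (-0.17 to 0.04) each held 0.

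Dlg4, whose product PSD-95 anchors neuroligins and glutamate receptors, was lower in both BPA libraries than in both controls, but male BPA and female control differed by less than 1 FPKM. The difference was -0.17 (-0.23 to -0.10) in males and -0.03 (-0.10 to 0.04) in females, and the combined value was -0.10 ± 0.10 (limma SE, adjusted p = 0.973). The ratio of Dlg4 to Shank1 was 1.71 (control) and 1.78 (BPA) for the male pools and 1.85 and 1.96 for the female pools. After scaling by median ratios instead of FPKM alone, Dlg4 no longer had both BPA libraries below both controls, and Nlgn1 was left alone in that count.

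**Figure D3:**
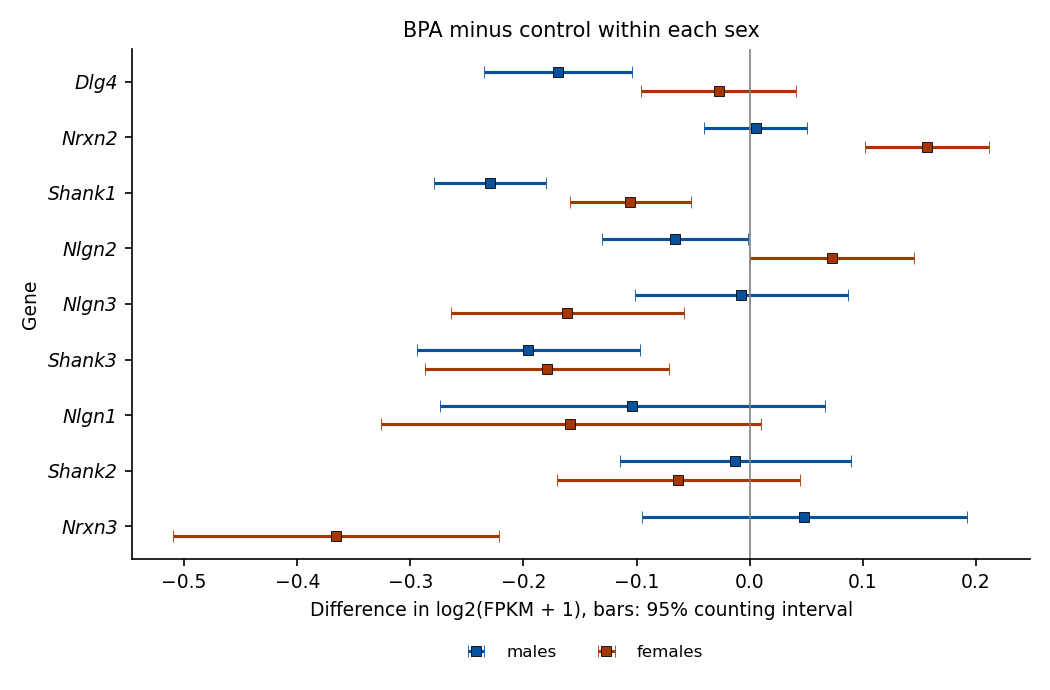
BPA minus control in log2(FPKM + 1) (horizontal) for each gene (vertical), in males and in females, each from 1 library against 1, with bars for the 95% counting interval. Shank1 and Shank3 lie left of 0 with their intervals in both sexes, and the female Nrxn3 point lies farthest left at -0.37.

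Counted over the 9 genes, 6 (Nlgn1, Nlgn3, Shank1, Shank2, Shank3 and Dlg4) were lower with BPA in both sexes, against 31.6% of all rows. The count was 5 with quantile normalization, where Nlgn3 was at 0.0164 in males, and 5 with median ratio scaling, where Dlg4 was at 0.0211 in females. Both BPA libraries lay below both controls for 2 of the 9 genes (19.9% of rows) and above for none (13.8% of rows). The counting interval was wholly below 0 for 4 genes in males (Nlgn2, Shank1, Shank3 and Dlg4) and for 4 in females (Nrxn3, Nlgn3, Shank1 and Shank3), beside 13.6% and 21.5% of rows. It was wholly above 0 for none in males (14.2% of rows) and for 2 in females, Nrxn2 and Nlgn2 (14.9% of rows). None of the 9 differed by a log2 value of 1 or more in males (1.70% of rows) or in females (2.17% of rows). The differences were thus small, none reaching 0.40 on the log2 scale. The summed markers of radial glia or astrocytes moved in the same direction as the Shanks, at 1368 FPKM in male control and 1229 in male BPA and at 1370 in female control and 1259 in female BPA, and those of the oligodendrocyte lineage went from 136 to 105 and from 111 to 94.0. The vessel and meninges list was lower with BPA as well, at 112 against 127 FPKM in males and 113 against 174 FPKM in females. So was the cycling cell list, at 80.7 against 95.8 FPKM in males and 85.1 against 96.2 FPKM in females. Their part in the result was not tested.

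The sexes were compared next, as 2 female against 2 male libraries. This fit leaves the treatment difference in its estimate of the spread. Both female libraries were below both male libraries for 6 of the 9 genes (Nrxn2, Nlgn2, Nlgn3, Shank1, Shank2 and Shank3), beside 22.5% of all rows, and above for none, beside 19.8% of rows. None passed limma's adjusted p of 0.05 (0.00738% of rows, a single row, did), while 3 of the 9 had an unadjusted p under 0.05 (10.6% of rows). The median female minus male difference of the 9 was -0.22 on the log2(FPKM + 1) scale, against -0.01 over all rows tested. Over the 1871 rows with a gene ID, a transcript length within the members' range and at least their lowest mean level, that median was -0.0052, and 497 of them had both female libraries below both male ones.

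Nrxn2 had the largest sex difference of the 9, with female libraries at 71.4% of the male mean and -0.48 ± 0.08 on the log2(FPKM + 1) scale (limma SE, unadjusted p = 0.000686, adjusted p = 0.179). The gap appeared in both pairs, -0.56 (-0.61 to -0.51) between the controls and -0.41 (-0.46 to -0.36) between the BPA libraries. Nlgn2 followed, with females at 80.1% of males and -0.31 ± 0.08 by limma (unadjusted p = 0.00543, adjusted p = 0.291). Both pairs again differed in the same direction, by -0.38 (-0.45 to -0.32) and -0.25 (-0.31 to -0.18). The X-linked Nlgn3 was at 84.9% in females, -0.23 ± 0.09 by limma (unadjusted p = 0.0371, adjusted p = 0.434). Shank3 was at 82.9% (adjusted p = 0.495 by limma), Shank1 at 85.7% (unadjusted p = 0.0662) and Shank2 at 90.2% (adjusted p = 0.654). Each of the Shanks was lower in females in both pairs, and each counting interval of those pairs was below 0.

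Nlgn1, Nrxn3 and Dlg4 did not share this order. Nlgn1 was at 105.1% of the male mean in females (0.07 ± 0.11 by limma, adjusted p = 0.871). Nrxn3 was at 100.3%, with a female minus male difference of 0.20 (0.06 to 0.34) between the controls and -0.21 (-0.36 to -0.07) between the BPA libraries, so the sexes changed order between the treatments. Dlg4 was at 93.5% in females, with -0.16 (-0.23 to -0.10) between the controls and -0.02 (-0.09 to 0.04) between the BPA libraries. The summed interneuron markers were also lower in females, at 159 FPKM in control and 150.2 in BPA against 193 and 187 in males. The choroid plexus sum given above was lower in both female libraries, as were 4 of the 5 genes tested from that list. The excitatory neuron sum was lower in both female libraries too, at 423.9 FPKM in control and 426.0 in BPA against 463.6 and 446.9 in males. Its 8 genes were split, since 2 had both female libraries below both male ones and 2 had both above. Their part in the sex difference was not tested.

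**Figure D4:**
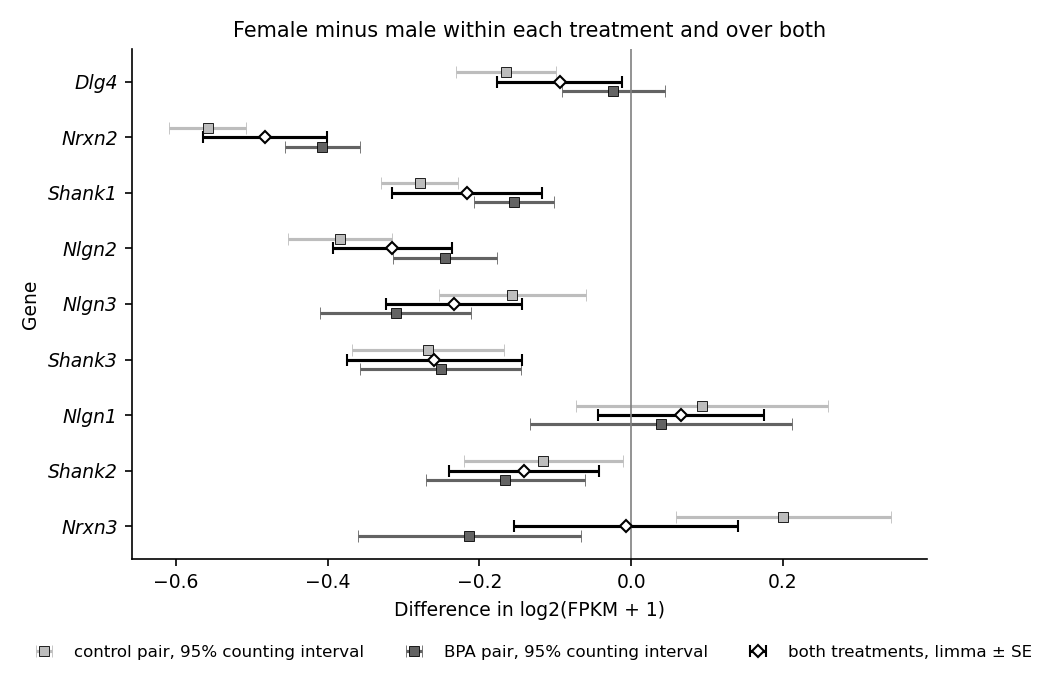
Female minus male in log2(FPKM + 1) (horizontal) for each gene (vertical), for the control pair and the BPA pair with 95% counting intervals, and over both treatments as the limma estimate ± SE. Nrxn2 and Nlgn2 lie farthest left, at -0.48 and -0.31 over both, and the Nrxn3 pairs lie on opposite sides of 0.

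The range of log2(FPKM + 1) over the 4 libraries was 0.18 (Shank2) to 0.56 (Nrxn2) with a median of 0.37, beside a median of 0.24 over the 1871 rows of like length and level. Averaged over the 9 genes, the centred log2 value was 0.13 (control) and 0.05 (BPA) for the male pools and -0.05 and -0.14 for the female pools. Among 8346 rows with a gene ID and a mean of at least 5 FPKM, the 5 closest to this average over the 4 libraries were Ap2a1 (root mean square distance 0.00345), Capn15 (0.00527), Acot3 (0.00831), Phf2 (0.0103) and Nr4a3 (0.0106). Ap2a1, a subunit of the endocytic clathrin adaptor, was at 76.55 FPKM (control) and 72.33 FPKM (BPA) for the male pools and 67.75 and 63.45 FPKM for the female pools. Its order, male control highest and female BPA lowest, follows from its choice as the row closest to the average. Of the members themselves, Shank2 was nearest to the average (0.0350, with 151 rows closer) and Nrxn2 farthest (0.175, with 5626 rows closer).

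The genes that work with the members fell into 5 lists, of which 58 of 62 genes were tested. None of the 58 passed limma's adjusted p of 0.05 or had an unadjusted p under 0.05 for BPA, and for the sexes none passed the adjusted p. Among the neurexin ligands and regulators (21 of 23 tested) the median difference was 0.06 in males and 0.07 in females, 7 were higher (24.4% of all rows) and 3 lower (31.6% of rows) with BPA in both sexes, and both BPA libraries lay above both controls for 3 (13.8% of rows). LRRTM1, a postsynaptic adhesion protein that binds neurexin, was at 19.07 FPKM (control) and 22.70 FPKM (BPA) for the male pools and 15.02 and 20.10 FPKM for the female pools. Both BPA libraries were above both controls, and the combined difference was 0.32 ± 0.15 (limma SE, adjusted p = 0.973). The calsyntenin gene Clstn1, at 168.56 to 198.30 FPKM, and the latrophilin gene Adgrl1, at 118.20 to 138.45 FPKM, were the most abundant of the list, with female libraries below male ones for both. C1ql3, a secreted synaptic organiser of low level here, went from 4.03 to 5.86 FPKM with BPA among male pools and from 2.61 to 2.44 FPKM among female ones.

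Of the cytoplasmic partners of neurexin (7 of 8 tested), 4 were lower in both sexes (31.6% of all rows) and the medians were -0.09 in males and -0.09 in females. Lin7c (99.42 to 107.71 FPKM), of the Cask complex, and Apba2 (96.27 to 116.43 FPKM), a Mint adaptor, were the most abundant. Lin7b went from 12.01 to 8.47 FPKM with BPA among male pools and from 7.30 to 9.42 FPKM among female ones. Its male difference was -0.46 (-0.88 to -0.03). The female one of 0.33 (-0.13 to 0.81) rested on 56 and 73 fragments, and its interval held 0. Lin7a was at 3.86 FPKM (control) and 4.11 FPKM (BPA) for the male pools and 3.92 and 4.80 FPKM for the female pools, and its combined difference of 0.15 ± 0.17 did not pass (limma SE, adjusted p = 0.973).

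Among the partners of PSD-95 and Shank in the postsynaptic density (18 of 18 tested), 7 were lower and 2 higher in both sexes (31.6% and 24.4% of all rows), with medians of -0.04 in males and -0.03 in females. Dlg2, a paralog of Dlg4, was at 60.08 and 60.29 FPKM among males (control, BPA) and at 69.09 and 66.67 FPKM among females. Both female libraries were above both male ones for Dlg2, the reverse of the Shanks. Dlgap2, a link between PSD-95 and Shank, was at 5.45 FPKM (control) and 4.90 FPKM (BPA) for the male pools and 5.57 and 3.72 FPKM for the female pools. Its combined difference of -0.30 ± 0.18 did not pass (limma SE, adjusted p = 0.973). Iqsec2 went from 18.47 to 15.50 FPKM with BPA among male pools and from 15.14 to 15.59 FPKM among female ones.

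Of the inhibitory partners of neuroligin 2 (5 of 5 tested), 3 were lower in both sexes (31.6% of all rows), and 3 had both BPA libraries below both controls (19.9% of rows). The medians were -0.06 in males and -0.19 in females. Lhfpl4, which ties GABA-A receptors to neuroligin 2, was higher with BPA in both sexes, from 58.33 to 62.99 FPKM with BPA among male pools and from 46.63 to 52.69 FPKM among female ones. Like Nlgn2, it was lower in both female libraries than in both male ones. Slitrk3 was at 7.76 and 9.82 FPKM among males (control, BPA) and at 8.62 and 7.39 FPKM among females.

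The RNA-binding regulators of neurexin splicing (7 of 8 tested) had medians of -0.05 in males and -0.02 in females. Khdrbs3 (SLM2), which controls an alternative exon of neurexins, was at 146.09 FPKM (control) and 125.67 FPKM (BPA) for the male pools and 149.23 and 132.30 FPKM for the female pools. Both BPA libraries were below both controls, with a combined difference of -0.19 ± 0.09 (limma SE, adjusted p = 0.973). Its relative Khdrbs2 went from 9.05 to 6.34 FPKM with BPA among female pools and from 6.97 to 6.91 FPKM among male ones. Ptbp2 was at 61.55 FPKM (control) and 78.22 FPKM (BPA) for the male pools and 72.56 and 78.05 FPKM for the female pools, both BPA libraries above both controls (0.22 ± 0.11, limma SE, adjusted p = 0.973). Celf2 stayed between 120.56 and 130.61 FPKM.

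**Figure D5:**
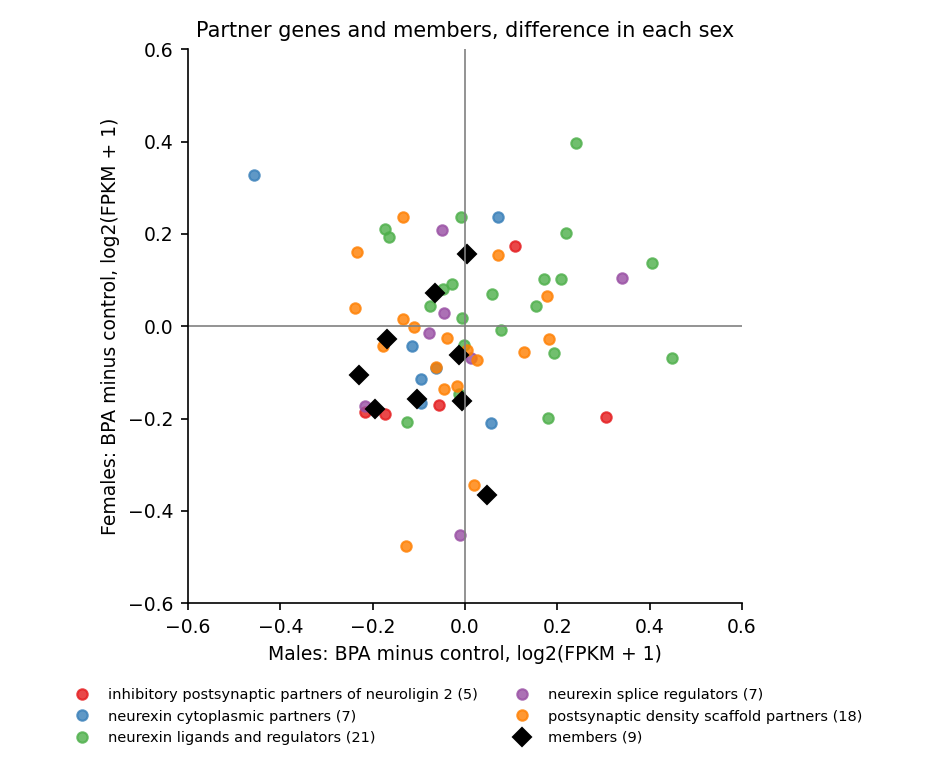
BPA minus control in log2(FPKM + 1) in males (horizontal) and females (vertical), 1 point per gene, for the 58 partner genes coloured by list and the 9 members as black diamonds, each difference from 1 library against 1. Of the 9 members, 6 lie to the left of and below 0, LRRTM1 lies at 0.24 and 0.40, and no point is past 0.50 in either sex.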

How the data were processed

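RNA-seq of 4 hippocampus pools was examined. The deposited values were FPKM per gene, in 1 table per library. Per the labels and the submitters' processing notes the authors named HISAT 0.1.6, Bowtie2 2.2.5, RSEM and the build rn6, without giving their roles. Rows were joined by gene ID, rows in all 4 libraries with a mean of at least 1 FPKM were kept (13542), and limma 3.58.1 (run under R 4.3.3) was fitted to log2(FPKM + 1) with a trended eBayes step, 2 libraries per arm, two-sided tests and Benjamini-Hochberg adjustment over all rows. The procedure was tested on simulated data. Differences within a sex have no replicate and carry 95% Clopper-Pearson counting intervals from estimated fragments. For depth, 94.4% to 98.5% of low values came within 0.15 of whole fragments. Named genes were the 9 members, from each list the 2 most abundant and those with the largest difference in males, in females and in both, and the 5 rows closest to the members' average. Of these, 2 list genes are not reported here. The members and lists were chosen with earlier results of these data known. Sequences came from RefSeq tables of build GRCr8, whereas the FPKM were made on rn6. The alternatives were another pseudocount (0.1), filter (mean of at least 5 FPKM) and scaling, rows summed per protein, a covariate, and leaving out each library.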

Additional observations from a re-analysis of the deposited data

Results flagged for a closer look

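Nlgn2 differed between control and BPA in opposite directions in the sexes, by -0.0659 in males and 0.0728 in females on the log2(FPKM + 1) scale, with both counting intervals leaving out 0 narrowly, with near ends at -0.0015 in males and 0.00043 in females. With quantile normalization the values were -0.0482 and 0.0509, smaller than the interval half-widths of 0.0644 and 0.0724. With median ratio scaling they were -0.0661 in males and 0.121 in females, larger than those half-widths. Each value rests on 1 library against 1, and the difference between the sexes was not tested. Nrxn3 also had opposite signs, but its male interval held 0.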

How the results depend on the processing

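The number of the 9 genes past an adjusted p of 0.05 was 0 under every alternative run, for BPA and for sex. Over all rows, the BPA count was 0, and 2 with sex as a covariate, with a range of 0 to 3 when 1 library was left out. The sex count was 1, and 21 with a mean of at least 5 FPKM, 25 with gene models summed per protein, 55 with treatment as a covariate, and up to 2 with 1 library left out. In that covariate fit the adjusted p of Nrxn2 was 0.0527, against 0.0527 to 0.815 over its alternatives. Rows past a log2 difference of 1 went from 230 in males and 294 in females to 492 and 580 with a pseudocount of 0.1, 28 and 60 with a mean of at least 5 FPKM, and 59 and 107 with gene models summed. Genes with both BPA libraries below both controls went from 2 to 1 under median ratio scaling.

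Directions turned for some values. With 1 library left out, 1 arm holds a single sex or treatment, so the difference takes in part of the other factor. The BPA difference stayed below 0 but spanned -0.307 to -0.0282 for Shank1 and -0.321 to -0.0538 for Shank3. It also stayed below 0 for Dlg4 (-0.181 to -0.0159), Nrxn3 (-0.266 to -0.0519) and Nlgn1 (-0.178 to -0.0845). With 1 library left out, the BPA difference spanned -0.198 to 0.360 for Nrxn2 (-0.122 without male BPA, -0.198 without female control), -0.189 to 0.195 for Nlgn2 (-0.119 and -0.189 without the same libraries), -0.239 to 0.0709 for Nlgn3 (the latter without female BPA) and -0.121 to 0.0451 for Shank2 (0.0199 without male control, 0.0451 without female BPA). The sex difference of Nlgn1 spanned -0.0131 (without female control) to 0.145 (without female BPA). That of Nrxn3 spanned -0.190 (without female control) to 0.176, and was 0.0137 with quantile normalization, 0.00478 with median ratio scaling, 0.0173 without male BPA and 0.176 without female BPA. In fits without a library the lone one of an arm was assumed to vary like the others. Of the other 294 values of single genes, 2 within-sex values changed sign, Nlgn3 in males with quantile normalization (0.0164) and Dlg4 in females with median ratio scaling (0.0211). The other 68 counts stayed within 1.5 times the reported ones. The causes were not tested. The fits with sex or treatment as a covariate pair the libraries within a sex or a treatment. The labels carry no replicate numbers, so no other pairing was made. The spread between pups was not measured.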
